A study of Mus musculus with 83 samples.

Results

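Brown fat cells grown in a dish were set against brown fat taken from the animal. The comparison covers 10461 genes, out of 11144 genes in the culture tables, of which 10995 also had a value in the tissue. A gene was kept when it was listed in both tables and reached a value of at least 1 in either library. The choice used no difference between the libraries. Just inside this minimum were Pcolce2, at 1.00 RPKM in the tissue, and Fosl1, at 1.00 FPKM in the culture, and just outside were Cited1, at 0.997 FPKM, and Ubash3b, at 0.995 FPKM.

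The culture was made from brown preadipocytes of newborn C57BL/6J mice carrying Pparg-flox/flox alleles, taken from the interscapular depot. These cells had been immortalized with a retrovirus expressing the SV40 large T antigen, a viral protein known to bind the p53 and retinoblastoma proteins. At confluence, on day 0, they received insulin, the thyroid hormone T3, IBMX, dexamethasone and indomethacin, and from day 2 medium with insulin and T3. By day 7 the submitters call them mature adipocytes. No label gives a Cre recombinase for these libraries or says whether the line is 1 clone. The tissue was interscapular brown adipose tissue of C57BL/6J mice aged 16 weeks, with no engineered allele or treatment named; the number of animals, their sex and their housing temperature appear in no source used here. All RNA was Trizol-extracted and poly(A)-selected. Of the 83 samples of the series, 5 are RNA libraries, and this comparison has 1 library a side, so the values below carry no replicate error or p-value. Culture cells of days -3, 0 and 2, from the same line, give the course in culture. Low tissue values step by whole reads (30 of 30 chemosensory receptor transcripts within 0.01 read), from which the tissue library held about 5350000 mapped reads; the depth of the culture libraries is unknown. Differences in age, immortalization, culture medium and the mixture of cells in a tissue coincide with the comparison and cannot be told apart.

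Brown adipocytes burn fat to make heat. Noradrenaline acts on beta-adrenergic receptors, cyclic AMP activates protein kinase A, lipases free fatty acids from lipid droplets, and the acids fuel mitochondria in which the carrier UCP1 lets protons back across the inner membrane without ATP synthesis. Brown fat in the animal is served by many capillaries and sympathetic nerves, which a culture lacks.

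Culture values are FPKM per gene and tissue values are RPKM per transcript. Both are scaled for transcript length and library size, but per gene on one side and per transcript on the other, so levels were not compared directly across the libraries. Each gene was instead given its rank within its own library, as a percentile of the 10461 genes, and the rank difference is always the tissue rank minus the day 7 rank, in percentage points. A gene is called higher in the tissue or in the culture when the ranks lie at least 25 points apart. Of all compared genes, 1118 (10.7%) were called higher in the tissue and 1114 (10.6%) higher in the culture, together 2232 (21.3%), with a median difference of 0.14 points. Ranks force these counts to be close to each other, and every count of list members below is to be read against these shares. Just inside and outside the call were Akr1b10 (25.02 points) and Vps37a (24.998 points), and Sass6 (-25.007 points) and Hmbox1 (-24.998 points).

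Ranks leave little room at the top of a library. The 100 highest genes held 35.8% of the summed level in the tissue and 19.6% in the culture, and 33 genes were among the 100 highest of both. A second measure is therefore given for abundant genes: the log2 ratio of tissue to culture, on log2(value + 1), centred so that the median gene is at 0. The shift removed by centring was 1.23, culture over tissue. On this centred scale 625 genes (5.97%) were at least 4-fold higher in the tissue and 559 (5.34%) in the culture. Scaling both libraries to the same total instead gave 304 higher in the tissue and 989 in the culture, so that the share of called genes that were higher in the tissue was 23.5% against 50.1% by rank. The direction of a modest difference thus depends on the scaling, and the scaling that matches RNA content of the cells is unknown.

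**Figure D1:**
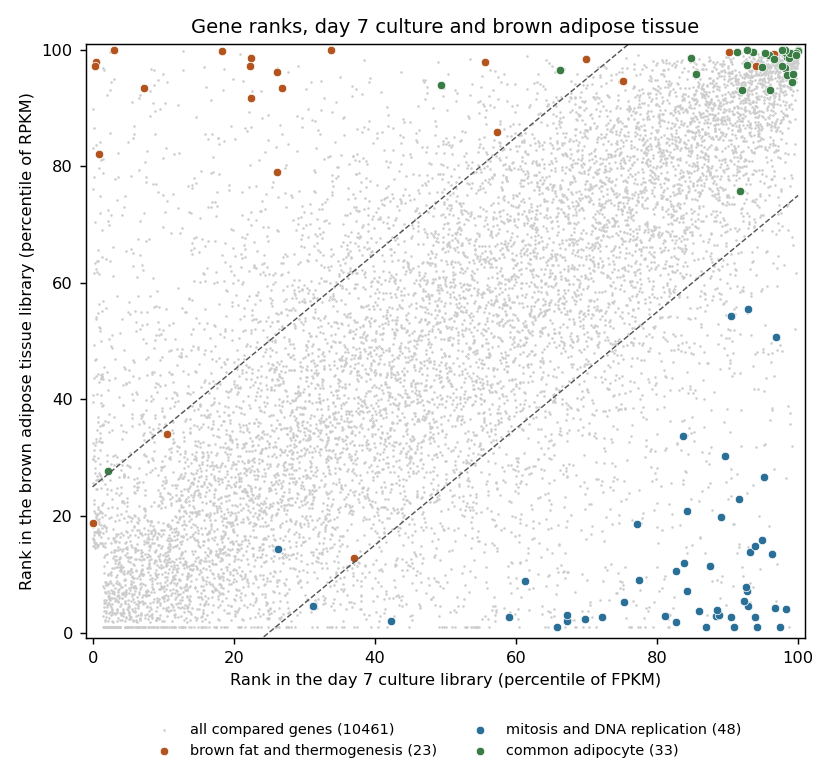
Rank of each compared gene in the day 7 culture (horizontal axis, percentile of FPKM) and in brown adipose tissue (vertical axis, percentile of RPKM), with dashed lines at 25 points to either side of equal rank. Common adipocyte genes crowd the upper right corner, 16 of 23 brown fat genes lie above the upper line, and 47 of 48 mitosis and replication genes lie below the lower line.

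The most abundant messages of both libraries included those of fat cells. Fabp4 and Scd1, a fatty acid binding protein and a desaturase, were the 2 highest genes of both, Fabp4 at 4070.2 FPKM in the culture and 5959.9 RPKM in the tissue and Scd1 at 2495 FPKM in the culture and 10163 RPKM in the tissue, and Aldoa and Atp5b were among the 10 highest of both. The tissue list of 10 also held Cidea and Fasn, and the culture list the lipoprotein lipase gene Lpl (1264 FPKM in the culture and 678 RPKM in the tissue), the metallothionein gene Mt1 (1477 FPKM in the culture and 112 RPKM in the tissue), the ferritin gene Fth1 (2389 FPKM in the culture and 1027 RPKM in the tissue) and Bsg (2302 FPKM in the culture and 191 RPKM in the tissue), which encodes a partner of lactate transporters.

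The brown fat program was the largest difference on the side of the tissue among the lists of fat biology. Of 32 listed genes 23 could be compared; 16 were called higher in the tissue and none higher in the culture, with a median of 66.2 points and a centred log2 median of 3.98. Of the compared members, 4 entered through their tissue value alone, and 1 through its culture value alone. Ucp1, the uncoupling protein, was at 0, 0, 0.0357 and 1.22 FPKM on days -3, 0, 2 and 7 and at 1015 RPKM in the tissue. Cidea, which enlarges lipid droplets, was at 0, 0, 0 and 8.81 FPKM and 1164 RPKM. Both were thus almost silent until day 7, and at day 7 they ranked in the lower part of the culture library while they were among the most abundant messages of the tissue.

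Genes that feed fatty acids into brown fat mitochondria followed the same order. Cpt1b, the muscle and brown fat form of the carnitine palmitoyltransferase that admits fatty acids to mitochondria, was at 1.98, 3.22, 1.72 and 5.48 FPKM over the 4 days and 172 RPKM in the tissue. Fabp3, a fatty acid binding protein of oxidative tissues, was at 0.667, 1.57, 0.0523 and 0.267 FPKM and 93.2 RPKM. Acot11, a thioesterase also called brown fat inducible thioesterase, was at 0.103, 1.16, 0.0734 and 0.374 FPKM and 119 RPKM, the largest rank difference of all compared genes whose larger value was at least 20 (97.4 points). Within the culture Cpt1b was highest on day 7, whereas Fabp3 and Acot11 were highest on day 0 and below 1 FPKM on day 7.

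Other members of the list had come up by day 7 and still ranked lower than in the tissue. Plin5, which couples lipid droplets to mitochondria, was at 0.0332, 0.0763, 0.556 and 6.73 FPKM and 42.1 RPKM. Ppara, the nuclear receptor of fatty acid oxidation, was at 0.0639, 0.425, 0.290 and 6.52 FPKM and 70.3 RPKM. Nrg4, a growth factor secreted by brown fat, was at 0.723, 0.655, 1.10 and 5.49 FPKM and 34.1 RPKM. Pank1, which starts coenzyme A synthesis, stood at 4.25, 3.26, 2.25 and 5.43 FPKM with no such course, and at 93.7 RPKM.

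The other 7 brown fat genes lay within 25 points of their tissue rank. Cox7a1, a subunit of cytochrome oxidase used in muscle and brown fat, was at 0.220, 1.96, 1.59 and 132 FPKM and 299.8 RPKM, a rank difference of 2.64 points, although its centred log2 ratio was 2.40. Kcnk3, a potassium channel gene enriched in brown fat, was at 0.136, 0.0585, 13.6 and 87.9 FPKM and 92.0 RPKM (3.16 points). Adrb3, the beta-3 adrenergic receptor, was at 0.107, 0.0893, 5.30 and 31.6 FPKM and 51.6 RPKM (19.5 points). Prdm16, a transcriptional regulator of brown fat identity, was at 0.427, 0.683, 0.934 and 2.54 FPKM and 2.95 RPKM (23.6 points, past the call when a gene's tissue transcripts were summed). Lhx8, a homeobox gene used as a brown fat marker, was the only compared member with a lower rank in the tissue, at 9.85 FPKM and 0.851 RPKM, after 54.2 FPKM on day 2. Pdk4, a kinase that spares glucose, ranked 9.44 points higher in the tissue at 64.0 FPKM in the culture and 465 RPKM in the tissue, and Fam176a ranked 18.7 points higher at 0.0603 FPKM in the culture and 1.37 RPKM in the tissue. Cox7a1 and Kcnk3 were thus the members closest to their tissue rank, and Prdm16 and Lhx8 lay just short of the call in opposite directions.

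The remaining 9 listed brown fat genes had no row in the culture tables, which hold only genes above 1 FPKM in some culture library. In the tissue, Dio2, the deiodinase that makes active thyroid hormone, was at 17.9 RPKM, the coactivator gene Ppargc1a at 15.2, the proton channel gene Otop1 at 66.8 and the fatty acid transporter Slc27a2 at 57.9. Bmp8b was at 0. A missing row is not a low value, since Gnas, the stimulatory G protein gene, and Pnpla2, the first lipase of fat breakdown, also have none while they are at 1272 and 652 RPKM in the tissue.

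**Figure D2:**
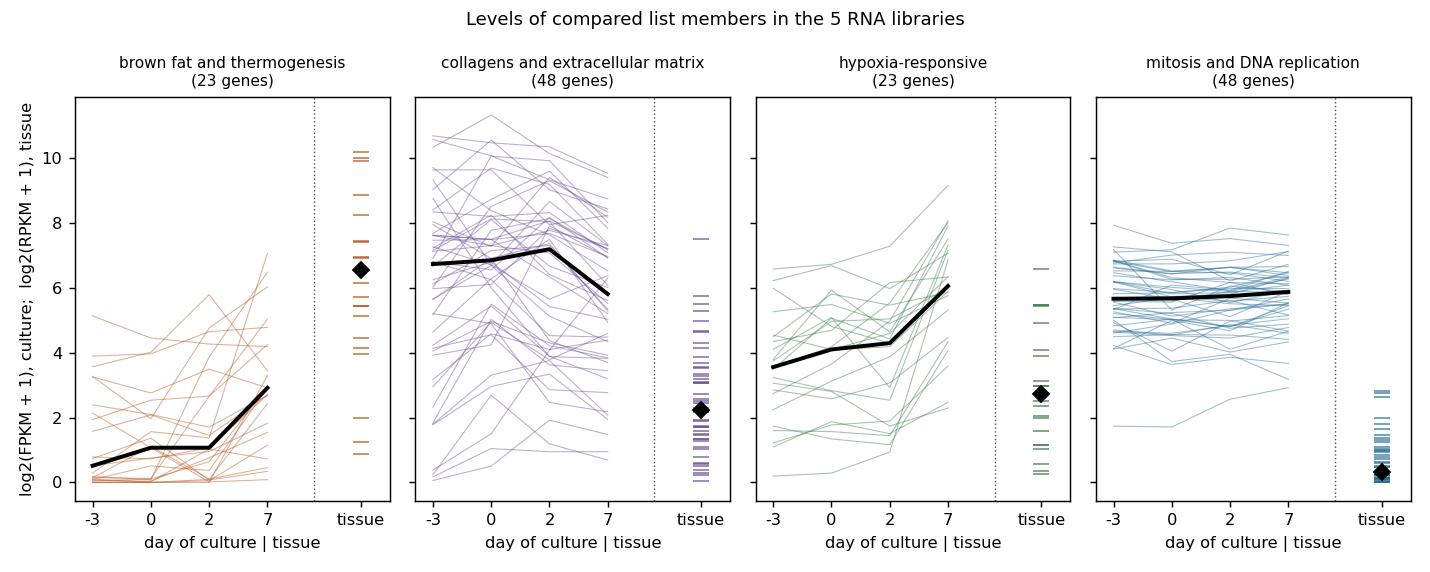
Levels of the compared members of 4 gene lists in the culture on days -3, 0, 2 and 7 (thin lines, log2(FPKM + 1)) and in brown adipose tissue (dashes, log2(RPKM + 1)), with medians in black (thick line and diamond). The culture and tissue axes differ in unit. The median of the brown fat genes is highest in the tissue, though single members such as Fabp3 and Acsl5 do not climb in culture, the medians of matrix and mitosis genes are lowest in the tissue, and that of hypoxia-responsive genes is highest on day 7.

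Common adipocyte genes were near the top of both libraries. Of 33 compared common adipocyte genes, 3 were called higher in the tissue and none higher in the culture, with a median of 1.08 points. Cd36, the fatty acid translocase, was at 0.102, 0.0657, 140.5 and 193 FPKM over the 4 days and 386 RPKM (1.22 points), and Cidec, the lipid droplet protein of white and brown fat, at 0.0704, 0.0448, 42.6 and 118 FPKM and 285 RPKM (3.27 points). Thrsp, a regulator of lipogenesis, was at 0.123, 0.121, 0.747 and 78.3 FPKM and 1984 RPKM; it ranked 7.20 points higher in the tissue with a centred log2 ratio of 5.88, which shows how ranks compress at the top. On the log2 scale 11 of the 33 were at least 4-fold higher in the tissue and 0 in the culture. The called members were Lep, the satiety hormone, at 1.10 FPKM and 2.24 RPKM, Pnpla3 (23.5 and 75.7) and the glycerol channel gene Aqp7 (14.4 and 46.4).

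Genes of fat burning lay to one side. All but Acad9 of the 28 compared genes of fatty acid oxidation ranked higher in the tissue (27 genes), but most by few points: 5 were called, the median was 5.75 points, and 19 passed 4-fold on the log2 scale, against none in the culture direction (median 2.42). With both libraries scaled to the same total, 12 of the 28 were at least 4-fold higher in the tissue and 0 in the culture (median 1.95 log2). By rank, the largest difference after that of Cpt1b was that of Slc25a20. This carrier, which brings acylcarnitine into mitochondria, was at 16.2 FPKM in the culture and 165 RPKM in the tissue. Acadm, the medium-chain acyl-CoA dehydrogenase, was at 10.7, 32.9, 64.4 and 110.0 FPKM over the 4 days and 467 RPKM, and Hadhb, a subunit of the trifunctional protein, at 1.90, 4.69, 5.93 and 22.4 FPKM and 117 RPKM. Both were therefore highest on day 7 within the culture. Cpt1a, the widely expressed counterpart of Cpt1b, was lower on day 7 than on days 0 and 2, at 15.5, 36.6, 38.7 and 8.01 FPKM and 2.96 RPKM. In peroxisomes, where very long chains are shortened, 5 of 30 genes were called higher in the tissue and none in the culture (median 10.8 points), led by Ehhadh, the bifunctional enzyme, at 4.43 FPKM in the culture and 40.6 RPKM in the tissue. After scaling to the same total, 2 of these 30 were at least 4-fold higher in the tissue and 0 in the culture (median 0.13 log2).

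The mitochondrial machinery as a whole was already abundant in the culture. For the citric acid cycle and pyruvate entry, 3 of 33 genes were called higher in the tissue and none in the culture (median 1.25 points, 2.01 log2), and 17 were at least 4-fold higher in the tissue on the log2 scale and 0 in the culture. For the respiratory chain and ATP synthase the counts were 7 higher in the tissue and 1 in the culture of 79 (median 1.10 points, 1.68 log2), and on the log2 scale 24 and 0. After scaling to the same total, the 4-fold counts were 8 and 1 of 33 for the citric acid cycle and pyruvate entry. For the respiratory chain and ATP synthase they were then 8 and 1 of 79. Ranks leave these abundant genes little room to differ. Cox6b1, a cytochrome oxidase subunit, was at 97.8, 87.0, 138 and 277 FPKM over the 4 days and 798 RPKM. Cox8b had the largest difference of these lists, with 0.0738, 0, 0.0667 and 4.38 FPKM and 956 RPKM (81.6 points). The member called higher in the culture was Atpif1, the inhibitory factor of the ATP synthase, at 69.3, 106, 78.1 and 84.4 FPKM and 8.32 RPKM. Cox8b and Atpif1 thus lay at the ends of this set by rank.

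By median rank, mitochondrial ribosomal proteins (10 of 74 called higher in the tissue, 1 in the culture, median 8.02 points) leaned to the tissue too. So did enzymes of branched-chain amino acid breakdown (4 of 24 and 0, median 12.7 points). The shares called higher in the tissue were 13.5% and 16.7%, beside 10.7% of all compared genes. After scaling to the same total, 0 of 74 ribosomal proteins were at least 4-fold higher in the tissue and 1 in the culture (median 0.28 log2). For the branched-chain enzymes the counts were then 5 of 24 and 0 (median 1.30 log2). Among these enzymes, Mcee, the methylmalonyl-CoA epimerase, was at 14.8 FPKM in the culture and 64.7 RPKM in the tissue. Ppm1k, the phosphatase that activates the pathway, was at 6.53 FPKM in the culture and 9.48 RPKM in the tissue. Bcat1, the cytosolic transaminase, was at 108, 49.1, 13.0 and 3.92 FPKM over the 4 days and 0.0239 RPKM, whereas the mitochondrial Bcat2 was at 10.5, 21.6, 45.4 and 52.2 FPKM and 30.9 RPKM. Within the culture the order of these transaminases turned between days 0 and 2, and Bcat2 was the higher one on day 7 and in the tissue.

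Mitochondrial carriers of the SLC25 family gave differences in both directions, with 7 of 35 called higher in the tissue and 3 in the culture (median 2.28 points). Besides Ucp1 and Slc25a20, Mcart1, the gene now named Slc25a51 whose product brings NAD into mitochondria, was at 0.553, 0.786, 1.33 and 2.42 FPKM over the 4 days and 63.6 RPKM (85.8 points). Slc25a35, a carrier of the same family, was at 0.257, 0.622, 0.805 and 2.2 FPKM and 45.1 RPKM (85.1 points). On the other side Ucp2, the widely expressed relative of Ucp1, was at 1.42, 12.2, 26.6 and 49.9 FPKM and 6.11 RPKM, and Slc25a10, the dicarboxylate carrier, at 23.2, 21.8, 60.2 and 66.8 FPKM and 5.05 RPKM. Ucp3 had no culture row and was at 55.7 RPKM in the tissue.

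Cycles that spend ATP to make heat could be followed only in part, with 9 of 17 genes compared. Gpd2 is the mitochondrial arm of the glycerol phosphate shuttle, a route that spends no ATP itself. It was at 21.6, 11.6, 6.35 and 46.2 FPKM over the 4 days and 198 RPKM. Gyk, the glycerol kinase that recycles glycerol to triglyceride, was at 8.52, 5.76, 10.2 and 6.54 FPKM and 14.4 RPKM (52.9 points). Ckb, the creatine kinase of the creatine cycle, was at 8.31 FPKM in the culture and 5.31 RPKM in the tissue (19.3 points). Atp2a3, a calcium pump of the endoplasmic reticulum, was at 0.0381, 0.182, 14.1 and 62.4 FPKM and 2.08 RPKM and was called higher in the culture. The pump gene Atp2a2 had no culture row and was at 65.9 RPKM in the tissue, and Atp2a1, the fast muscle pump, at 205 RPKM beside the muscle genes described further on.

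Beta-adrenergic and lipolysis genes showed 6 of 21 called higher in the tissue and none in the culture, with a median of 5.90 points. Adcy3, an adenylyl cyclase induced in brown fat by cold, was at 11.7, 17.4, 9.03 and 7.4 FPKM over the 4 days and 25.8 RPKM (59.7 points), and Pde4d, a phosphodiesterase that ends the cyclic AMP signal, at 11.0, 12.0, 19.0 and 9.05 FPKM and 31.6 RPKM (56.5 points). Adora1, the adenosine receptor that restrains lipolysis, was at 0.0566, 0.0323, 1.31 and 17.8 FPKM and 29.1 RPKM. Lipe, hormone-sensitive lipase, was at 1.11, 3.07, 151 and 246 FPKM and 362 RPKM (0.593 points, 1.78 log2), and Mgll, the monoglyceride lipase, at 0.110, 0.0741, 13.3 and 46.6 FPKM and 188 RPKM (13.9 points, 3.22 log2). G0s2, an inhibitor of the first lipase, was at 0.166, 1.30, 92.0 and 358 FPKM and 65.4 RPKM (-3.33 points, -1.20 log2).

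Triglyceride synthesis placed 5 of 17 genes higher in the tissue and none in the culture (median 6.07 points, 2.04 log2). Pck1, an enzyme on the route from pyruvate to glycerol phosphate in fat, was at 0.0186, 0.00939, 0.0278 and 1.2 FPKM over the 4 days and 714 RPKM (96.9 points). Its course was like that of Ucp1, below 0.1 FPKM until day 2 and just above 1 FPKM on day 7. Agpat6, an acyltransferase of the endoplasmic reticulum, was at 55.0, 34.8, 48.3 and 23.2 FPKM and 76.0 RPKM. Fatty acid uptake and activation genes gave 3 of 19 and 0, with a median of -0.00956 points whose sign turned under 8 of the alternatives, so no direction is given. Lrp1, an uptake receptor for lipoproteins, was at 147, 272, 301 and 106 FPKM and 11.7 RPKM (-21.0 points), and Acsl5, an acyl-CoA synthetase, at 34.1, 20.9, 18.2 and 17.2 FPKM and 122 RPKM (42.3 points).

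De novo lipogenesis divided by enzyme. Of 24 genes, 2 were called higher in the tissue and 5 in the culture (median 1.68 points). On the centred log2 scale 12 were at least 4-fold higher in the tissue and 6 in the culture (9 and 7 after scaling to the same total). The route from citrate to saturated acids lay on the tissue side of that scale, with Acly, ATP citrate lyase, at 100.005 FPKM on day 7 and 805 RPKM, Fasn, fatty acid synthase, at 175, 95.7, 94.0 and 321 FPKM and 2276 RPKM, and Elovl6, the elongase that makes stearate, at 19.7, 18.5, 7.24 and 5.07 FPKM and 347 RPKM. Elovl6 was the only one of these called by rank (78.4 points), and within the culture it was lowest on day 7.

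The desaturases of polyunsaturated fat lay on the culture side. Fads1, the delta-5 desaturase, was at 67.8, 156, 61.6 and 124 FPKM and 4.70 RPKM (-48.3 points), and Fads2, the delta-6 desaturase, at 90.7, 163, 45.0 and 103 FPKM and 3.84 RPKM (-53.7 points). Scd3, a stearoyl-CoA desaturase known from skin, was at 0.414, 1.13, 0.657 and 45.4 FPKM and 0.916 RPKM (-70.7 points). The Scd genes are close copies, and reads may have been divided between them differently in the tables, so these values are uncertain. Srebf1, the gene of the transcription factor that drives lipogenesis, was at 50.9, 73.5, 164 and 622 FPKM and 56.0 RPKM (-4.58 points, -2.22 log2).

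Cholesterol synthesis was mixed, with 6 of 22 genes called higher in the tissue and 2 in the culture (median 10.3 points, and -0.04 log2 after scaling to the same total). Nsdhl, a late enzyme of the pathway, ranked 44.2 points higher in the tissue. The transcription factor gene Srebf2, which drives the pathway, was at 93.3, 129.5, 53.5 and 63.5 FPKM over the 4 days and 5.44 RPKM (-38.0 points).

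In sugar handling, forms of the same step differed in direction. In glycolysis 2 of 22 genes were called higher in the tissue and 4 in the culture (median -1.27 points). The tissue genes were the muscle enolase Eno3, at 9.81 FPKM in the culture and 43.9 RPKM in the tissue, and the muscle phosphoglycerate mutase Pgam2, at 2.50 FPKM in the culture and 31.4 RPKM in the tissue. Slc2a1, the basal glucose transporter GLUT1, was at 62.2, 27, 18.6 and 65.3 FPKM over the 4 days and 2.98 RPKM, and Slc2a4, the insulin-responsive GLUT4, at 0.0432, 0.801, 8.78 and 77.8 FPKM and 102 RPKM. GLUT1 was therefore called higher in the culture (-55.9 points) and GLUT4 had a similar rank in both (4.76 points). Slc16a3, the lactate exporter MCT4, was at 10.9, 8.37, 1.58 and 21.8 FPKM and 0.862 RPKM, and Pgk1, phosphoglycerate kinase, at 21.6, 21.8, 14.9 and 68.8 FPKM and 5.40 RPKM. Gapdh was at 17.8 FPKM and 0.303 RPKM, values far below those of its neighbours in the pathway such as Aldoa (1985 and 1457), and it has many pseudogene copies, so its value is uncertain in both tables.

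In insulin signalling and glycogen metabolism 4 of 28 genes were called higher in the tissue and 2 in the culture. The tissue genes included the glycogen phosphorylases Pygl, the liver form (20.4 FPKM and 233 RPKM), and Pygm, the muscle form (1.13 and 40.8), and the receptor adaptor Grb14 (1.79 and 14.7). Irs2, an insulin receptor substrate, was at 14.6, 8.39, 54.3 and 37.8 FPKM and 4.15 RPKM and was called higher in the culture, as was Foxo3 (15.6 and 1.62).

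Hypoxia-responsive genes, targets of the oxygen-sensing HIF factors, ranked lower in the tissue. Of 23 compared genes 13 were called higher in the culture and none in the tissue, with a median of -29.3 points and -1.77 log2; 3 of them entered through their culture value alone. Ero1l, an oxidase of protein folding, was at 10.7, 17.1, 45.3 and 256 FPKM over the 4 days and 3.13 RPKM. Egln3, the prolyl hydroxylase PHD3, was at 8.4, 6.09, 4.79 and 141 FPKM and 6.92 RPKM, and Ndrg1 at 12.8, 59.7, 23.9 and 180.5 FPKM and 7.76 RPKM. Day 7 was the highest culture time for each of these 3 genes. Plod2, which hydroxylates collagen lysines, was at 19.2, 24.7, 70.4 and 79.4 FPKM and 1.02 RPKM (-78.2 points), the largest difference of the list. Several members also serve collagen processing (P4ha1, P4ha2 and Plod2) or glucose uptake (Slc2a1), and Vegfa, the angiogenic growth factor, had a rank difference of -2.40 points at 567 FPKM and 94.9 RPKM.

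**Figure D3:**
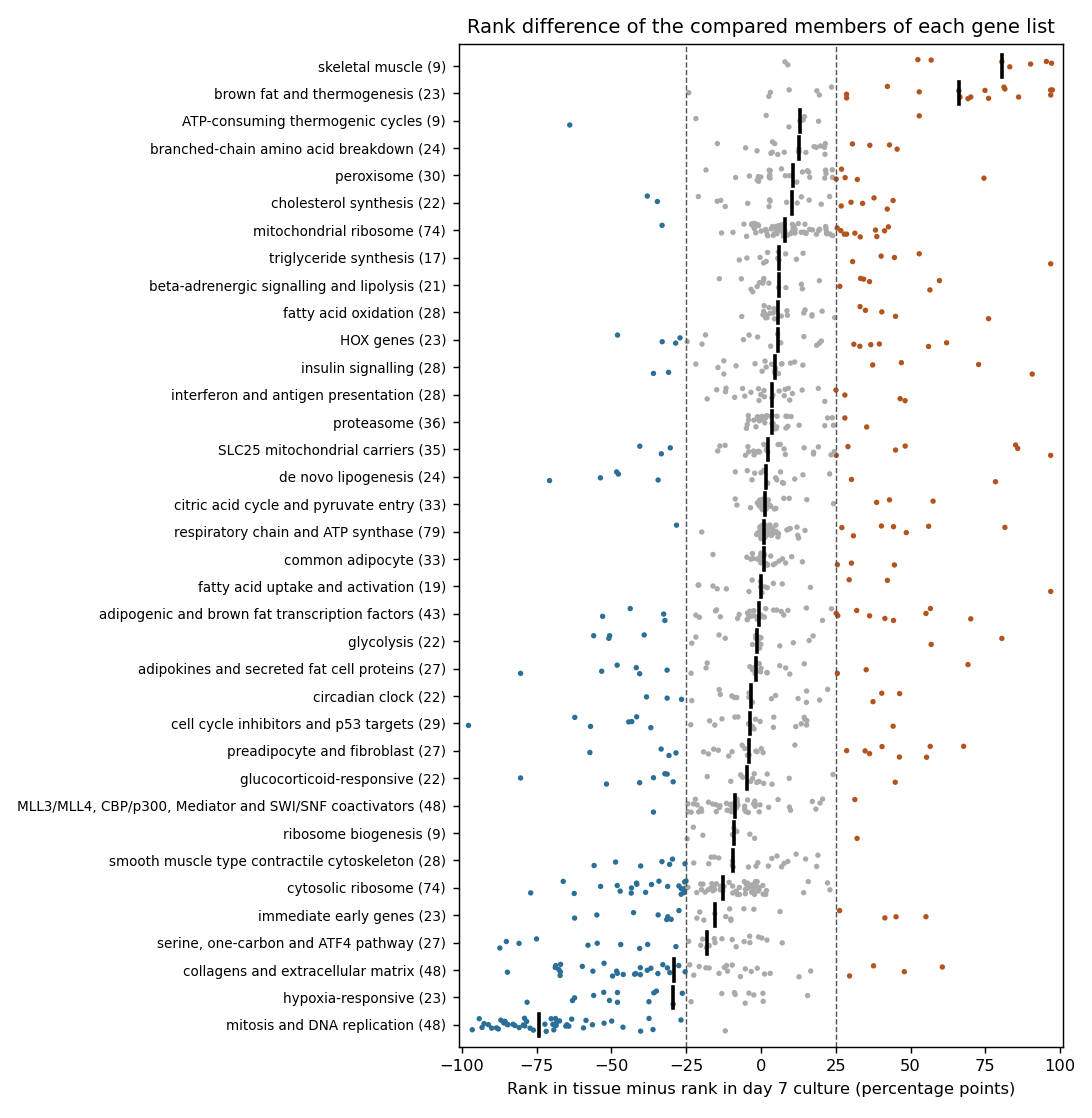
Rank difference (tissue minus day 7, percentage points) of each compared member of the gene lists with at least 9 compared members, with the median of each list as a black bar and dashed lines at 25 points. Members called higher in the tissue are orange and those called higher in the culture are blue. The medians run from 80.5 points for skeletal muscle genes to -74.2 for mitosis and replication, and most metabolic lists lie between the dashed lines.

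The widest separation in the culture direction was that of cell division. All 48 compared genes of mitosis and DNA replication ranked lower in the tissue and 47 were called, with a median of -74.2 points; 36 of them entered through their culture value alone, and in a ranking limited to genes with at least 1 on both sides the other 12 had a median of -72.3 points. Cdk1, the kinase that starts mitosis, was at 242, 164, 182 and 157 FPKM over the 4 days and listed at 0 in the tissue. Top2a, the topoisomerase of chromosome segregation, was at 136, 143, 228 and 196 FPKM and 0.179 RPKM, and Mcm5, a subunit of the replicative helicase, at 98.1, 85.5, 88.3 and 78.3 FPKM and 0.382 RPKM. In the tissue library 3 reads on 1 kb of transcript correspond to 0.561 RPKM, so most of these tissue values rest on few reads or none. Pcna and Rrm1, which also serve DNA repair, kept 5.79 and 6.03 RPKM in the tissue beside 66.1 and 79.6 FPKM. The genes were expressed at every culture time, day 7 included: Birc5, survivin, was at 113, 78.1, 70.4 and 68.7 FPKM and Ccnb2, cyclin B2, at 39.1, 66.6, 59.7 and 89.7.

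Some inhibitors of the cell cycle ranked higher in the same culture. Cdkn2a, which encodes the p16 and ARF inhibitors, had the largest rank difference in the culture direction of all genes with a value of at least 20 (-97.8 points), at 118, 289, 211 and 242 FPKM over the 4 days and listed at 0 in the tissue. Cdkn2b, which encodes p15, was at 18.7, 47.9, 30.5 and 29.2 FPKM and 0.671 RPKM, and Trp53, which encodes p53, at 94.3, 61.4, 38.5 and 32.0 FPKM and 3.48 RPKM. Of 29 inhibitors and p53 targets, 7 were called higher in the culture and 1 in the tissue (median -3.78 points). The exception was Fas, a death receptor, at 5.23 FPKM and 8.43 RPKM. Other p53 targets such as Cdkn1a (-8.72 points) and Mdm2 (-4.17 points) were not called.

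Promoter sequences show a feature that the rank rule did not use. RefSeq sequences (GRCm38.p6) from 250 bases before to 50 bases after the gene start are given for 3 of the culture genes with the largest rank differences and 2 of the tissue genes, in the direction of transcription. Capitals mark 3 kinds of motif searched on both strands. One is the CCAAT box, which reads ATTGG where it lies on the opposite strand. Another is the TATAAA box. The last is a hexamer that resembles the cell cycle homology region, either TTTGAA in its usual form or the variant form TTCGAA in its place; it was added after the data were seen. None of the motifs contains another. Cdk1 is at chr10:69352863-69353162 on the minus strand, Top2a at chr11:99024140-99024439 on the minus strand, Ccnb2 at chr9:70421505-70421804 on the minus strand, Acta1 at chr8:123894726-123895025 on the minus strand and Ucp1 at chr8:83290098-83290397 on the plus strand.
Cdk1: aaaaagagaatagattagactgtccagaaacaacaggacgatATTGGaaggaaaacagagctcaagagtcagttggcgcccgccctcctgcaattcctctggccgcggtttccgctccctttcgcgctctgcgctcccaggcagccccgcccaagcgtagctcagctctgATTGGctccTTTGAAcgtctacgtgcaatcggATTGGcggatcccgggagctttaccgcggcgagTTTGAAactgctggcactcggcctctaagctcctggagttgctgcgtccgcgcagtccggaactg
Top2a: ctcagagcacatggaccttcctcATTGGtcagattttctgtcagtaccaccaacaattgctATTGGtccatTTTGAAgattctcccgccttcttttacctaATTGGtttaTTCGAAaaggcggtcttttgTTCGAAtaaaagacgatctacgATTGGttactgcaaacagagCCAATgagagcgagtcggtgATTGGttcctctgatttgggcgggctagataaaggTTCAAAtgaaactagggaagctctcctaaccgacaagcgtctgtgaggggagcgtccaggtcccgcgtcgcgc
Ccnb2: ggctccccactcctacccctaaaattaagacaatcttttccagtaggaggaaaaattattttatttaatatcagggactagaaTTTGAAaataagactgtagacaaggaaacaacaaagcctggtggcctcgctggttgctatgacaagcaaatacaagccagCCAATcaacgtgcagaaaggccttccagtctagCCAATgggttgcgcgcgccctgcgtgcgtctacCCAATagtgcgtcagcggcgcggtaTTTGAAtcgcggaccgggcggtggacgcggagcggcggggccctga
Acta1: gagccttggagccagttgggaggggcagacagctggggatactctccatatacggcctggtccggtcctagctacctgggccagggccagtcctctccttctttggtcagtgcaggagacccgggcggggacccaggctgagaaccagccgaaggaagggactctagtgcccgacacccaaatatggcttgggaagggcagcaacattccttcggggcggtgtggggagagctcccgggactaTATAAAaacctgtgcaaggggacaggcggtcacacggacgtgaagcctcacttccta
Ucp1: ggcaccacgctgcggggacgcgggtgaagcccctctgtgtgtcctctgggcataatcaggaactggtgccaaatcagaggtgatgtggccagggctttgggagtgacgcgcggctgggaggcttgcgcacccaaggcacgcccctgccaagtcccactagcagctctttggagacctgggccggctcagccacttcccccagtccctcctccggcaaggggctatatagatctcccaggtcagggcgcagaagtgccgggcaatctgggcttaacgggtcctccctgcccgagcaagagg

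Cdk1 and Ccnb2 have 3 CCAAT boxes and 2 of the hexamers each, Top2a has 6 and 4, and Ucp1 has none of the 3 motifs. In the promoter of Acta1, the skeletal muscle actin gene, only the TATAAA box was found, 1 time. Further promoters were examined in the same way and are not printed. That of the culture gene Racgap1 had 1 CCAAT box and 1 hexamer, and those of the tissue genes Fabp3 and Pck1 had none of the 3 motifs. Over the mitosis and replication list, 40 of 48 genes had a promoter entry; 77.5% of these held CCAAT and 52.5% held one of the hexamers. The same shares were 45.2% and 19.9% of 888 promoters of genes called higher in the culture, 35.9% and 10.2% of 875 promoters of genes called higher in the tissue, 39.6% and 13.1% of 6654 promoters of the other compared genes, and 37.9% and 19.4% of the 27025 promoters of the whole table. Without the mitosis list the culture promoters held CCAAT in 43.7% and a hexamer in 18.4%. TATAAA was found in 8.91% of tissue, 5.86% of culture and 6.04% of other promoters, against 14.2% of the whole table. The CpG content, as observed over expected CpG, had medians of 0.715, 0.793 and 0.791 in these 3 classes. A match of letters is not a binding site, and nothing was tested here about the factors.

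Extracellular matrix genes were the next large group on the culture side. Of 48 compared genes 26 were called higher in the culture and 4 in the tissue, with a median of -29.0 points; 8 entered through the culture value alone and 2 through the tissue value alone. Col1a1, the main chain of type I collagen, was at 1282, 2556, 1121 and 674 FPKM over the 4 days and 7.44 RPKM. Fn1, fibronectin, was at 792, 791, 245 and 299 FPKM and 2.70 RPKM, and Thbs1, thrombospondin 1, at 639, 103, 49.1 and 82.0 FPKM and 0.483 RPKM. Col1a1 and Fn1 were already below their day 0 level on day 7 and were still among the abundant genes of the culture. Col15a1, a basement membrane collagen, was at 14.1, 17.9, 239 and 121 FPKM and 4.46 RPKM.

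Fibroblast genes were not simply higher in the dish. The 4 matrix genes called higher in the tissue were Lum (0.611 FPKM and 7.39 RPKM), Dcn (13.3 and 52.7), Tnxb (0.928 and 3.54) and Timp3 (21.2 and 38.0). Lum and Dcn encode small proteoglycans of connective tissue, Tnxb a tenascin and Timp3 a protease inhibitor. Among preadipocyte and fibroblast genes, 8 of 27 were called higher in the tissue and 4 in the culture, and 3 and 9 had entered through 1 side alone. By any amount, 11 ranked higher in the tissue and 16 in the culture. The median was -3.94 points, but 0.21 points with summed transcripts. With a minimum of 5 the calls were 3 and 2 of 14. Among others, the tissue side held Cd34 (0.927 FPKM and 9.48 RPKM), Pi16 (0.362 and 4.50), Dpt (4.13 and 11.5) and Ly6a (9.78 and 36.1). The culture side held Csf1, the macrophage growth factor (33.3 and 1.42), among others. Contractile cytoskeleton genes had 7 of 28 called higher in the culture and none in the tissue (median -9.38 points), with Acta2, smooth muscle actin, at 6017, 808, 260.1 and 223 FPKM over the 4 days and 9.45 RPKM.

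Serine synthesis, one-carbon and ATF4 genes, which supply amino acids and folate units to growing or stressed cells, also lay on the culture side. Of 27 genes 10 were called higher in the culture and none in the tissue (median -18.2 points), and 10 entered through their culture value alone. Psat1, of serine synthesis, was at 216, 140.4, 196 and 141 FPKM over the 4 days and 0.775 RPKM, and Mthfd2, the mitochondrial folate enzyme of dividing cells, at 96.4, 72.8, 112 and 75.0 FPKM and 0.723 RPKM. Aldh1l2, another mitochondrial folate enzyme, was at 19.0, 69.5, 22.3 and 63.4 FPKM and 0.0930 RPKM. Trib3, a pseudokinase induced by ATF4, was at 10.3, 54.0, 33.2 and 126 FPKM and 3.46 RPKM, and Atf4 itself at 369.8, 276, 313 and 287 FPKM and 30.7 RPKM. Asns, asparagine synthetase, stayed within -5.62 points at 78.3 FPKM and 22.9 RPKM.

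Ribosomal protein genes ranked lower in the tissue in 66 of 74 cases, with 21 called and a median of -12.5 points. These values are uncertain, because 60 of the 74 genes have a named pseudogene copy that can take or share their reads. Over the 14 without one, 3 were called and the median was -5.9 points. Of all 276 compared genes with a named copy, 16.3% were called higher in the culture, and 12.8% of the 218 that are not ribosomal proteins. Rpl10a, for example, was at 24.1 FPKM and listed at 0 in the tissue. Proteasome genes, which serve protein breakdown, had 2 of 36 called higher in the tissue and 0 in the culture, and ribosome biogenesis genes 1 of 9 and 0.

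Immediate early genes, which answer stimulation within minutes, had 8 of 23 called higher in the culture and 4 in the tissue (median -15.4 points). Egr1 was at 36.6, 85.8, 28.1 and 89.0 FPKM over the 4 days and 2.68 RPKM, whereas Klf4 was at 4.63, 2.60, 1.56 and 1.88 FPKM and 7.55 RPKM and Nr4a2 at 8.27, 6.38, 2.23 and 2.00 FPKM and 5.56 RPKM. Glucocorticoid-responsive genes had 7 of 22 called higher in the culture and 1 in the tissue. Fkbp5, a chaperone induced by glucocorticoids, was at 27.1, 23.6, 133 and 37.9 FPKM and 2.29 RPKM, and Errfi1, an inhibitor of growth factor receptors, at 47.6, 59.8, 205 and 73.2 FPKM and 5.27 RPKM; both were highest on day 2, the sample taken after dexamethasone was added on day 0. Hsd11b1, which regenerates active glucocorticoid, fell just short of a call in the other direction, at 0.0885, 0.0340, 11.8 and 29.1 FPKM and 87.4 RPKM (24.1 points).

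Transcription factors of fat cells were spread to both sides, 9 of 43 higher in the tissue and 4 in the culture, with a median of -0.640 points; its centred log2 form turned positive with a pseudocount of 0.1. After Ppara the largest difference was that of Rxrg, a retinoid X receptor, at 0, 0, 0.168 and 3.90 FPKM over the 4 days and 11.0 RPKM. Klf15, Nr1h3 and Irf4, factors of lipid metabolism, ranked 15.2, 20.6 and 25.7 points higher in the tissue. Cebpd, an early adipogenic factor, was at 10.3, 9.53, 104 and 16.3 FPKM and 1.65 RPKM (-32.1 points), and Nrf1, a factor of mitochondrial gene expression, at 33.3, 21.3, 22.4 and 34.6 FPKM and 1.93 RPKM (-52.9 points). Nrip1 and Tle3, corepressors known to restrain brown fat genes, were called higher in the culture, Nrip1 at 23.7 FPKM in the culture and 2.93 RPKM in the tissue and Tle3 at 48.0 FPKM in the culture and 3.88 RPKM in the tissue.

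Coactivators of enhancers, the MLL3/MLL4, CBP/p300, Mediator and SWI/SNF proteins, leaned to lower ranks in the tissue (39 of 48, median -8.56 points) with 1 called in each direction. The culture count by rank was 7 with summed transcripts or a minimum of 5, 9 with at least 1 in both libraries and 6 without genes of under 3 tissue reads on 1 kb. On the centred log2 scale 0 of the 48 were at least 4-fold higher in either direction. After scaling to the same total the counts were 0 in the tissue and 1 in the culture. Paxip1, a subunit of the MLL3/MLL4 complex, was at 22 FPKM in the culture and 2.26 RPKM in the tissue, and Smarca2, a SWI/SNF ATPase, at 10.8 FPKM in the culture and 10.2 RPKM in the tissue. HOX genes, which keep positional identity, had 6 of 23 called higher in the tissue and 4 in the culture; 9 had entered through their culture value alone and 1 through its tissue value alone. With at least 1 in both libraries the counts were 5 and 2 of 13. Hoxa5 was at 0.940, 1.59, 2.2 and 3.99 FPKM over the 4 days and 14.2 RPKM, and Hoxc10 at 9.79, 17.0, 6.99 and 8.85 FPKM and listed at 0 in the tissue. Hoxb9 was at 46.3, 36.9, 11.1 and 15.3 FPKM and 0.139 RPKM, and Hoxc9 was listed at 0 in the tissue beside 5.01 FPKM. The called HOX genes of the culture were Hoxb9, Hoxc10, Hoxc8 and Hoxc6, and those of the tissue Hoxa5, Hoxd8, Hoxc5, Hoxc4, Hoxa3 and Hoxa4. Clock genes had 3 of 22 higher in the tissue and 3 in the culture, and no source used here gives the hour at which the tissue was taken.

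Of secreted proteins, 3 of 27 were called higher in the tissue and 6 in the culture, but 8 had entered through their culture value alone, among them Ccl2, Gdf15 and Apln. In a ranking limited to at least 1 in both libraries the counts were 2 and 2 of 19. Resistin (Retn), at 0.106, 0.0610, 16.5 and 119 FPKM over the 4 days and 40.8 RPKM, and adipsin (Cfd), at 0.225, 0.345, 6.30 and 605 FPKM and 407 RPKM, ranked -2.84 and -0.163 points from their culture position. Ccl2, a monocyte attractant, was at 32.0, 80.8, 14.6 and 16.5 FPKM and listed at 0 in the tissue, and Gdf15, a stress hormone, was at 8.47, 3.15, 3.58 and 13.4 FPKM and 0.345 RPKM. Apln, apelin, was at 17.1 FPKM and 0.95 RPKM. Interferon and antigen presentation genes had 4 of 28 called higher in the tissue and none in the culture, and the median of 3.85 points turned sign with a minimum of 1 in both libraries.

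Paralogs of 1 library share its unit, so their ratio needs no scaling between the libraries. It still depends on how a gene's tissue transcripts are summarized and on the 1 added to each value. Over the alternatives 92 pair differences stayed within 1 log2 unit, 6 moved further and 1 reversed. With summed transcripts Acot2 over Acot7 went from 1.41 to 0.022 and Pfkm over Pfkp from 2.32 to 3.87, tissue minus culture. With a pseudocount of 0.1 Fabp3 over Fabp5 went from 8.68 to 10.5. Of 39 pairs, 33 had values on both sides. The first gene of most pairs is the form known from fat, muscle or other oxidative tissue and the second a wider form, and some pairs set a mitochondrial against a cytosolic enzyme (Idh2 and Idh1, Mdh2 and Mdh1, Got2 and Got1) or differ in other ways (Cidea and Cidec). The pairs and their order were chosen with earlier results of these data known, so the counts of direction are a description and no support for a pattern. The ratio was at least 1 log2 unit higher in the tissue for 23 pairs, lower for 1 and within 1 unit for 9, with a median of 2.51 log2 units. For 12 pairs the order of the genes differed, and in all 12 the first gene was the higher one in the tissue and the second in the culture. Ucp1 over Ucp2 was at -4.52 in the culture and 7.16 in the tissue, in log2 of the ratio. Cpt1b over Cpt1a went from -0.47 to 5.45 and Fabp3 over Fabp5 from -5.87 to 2.81.

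Further pairs, some with genes of the brown fat list, differed between the libraries to various degrees. Pdk4 over Pdk1, kinases that shut pyruvate dehydrogenase under fasting and under hypoxia, was at -1.88 in the culture and 3.96 in the tissue. Ndufa4 over Ndufa4l2, the second being a HIF target, was at 6.75, 6.56 and 6.71 on days -3, 0 and 2, 0.51 on day 7 and 6.33 in the tissue, so that day 7 stood apart from the earlier days as much as from the tissue. Dgat2 over Dgat1, the enzymes of the last step of triglyceride synthesis, was at -1.95 and 3.40, and Prkar2b over Prkar1a, regulatory subunits of protein kinase A, at -0.05 and 3.07. The reverse case was Elovl3 over Elovl6, at -1.06 and -3.003. Cox7a1 over Cox7a2 (-0.83 and -0.36) and Cox6a2 over Cox6a1 (-4.95 and -5.00) differed by less than 1 unit, unlike Cox8b over Cox8a (-6.89 and 0.89). Of these 3 cytochrome oxidase subunits, 2 had in the dish about the proportion of forms seen in the tissue, and subunit VIII did not.

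**Figure D4:**
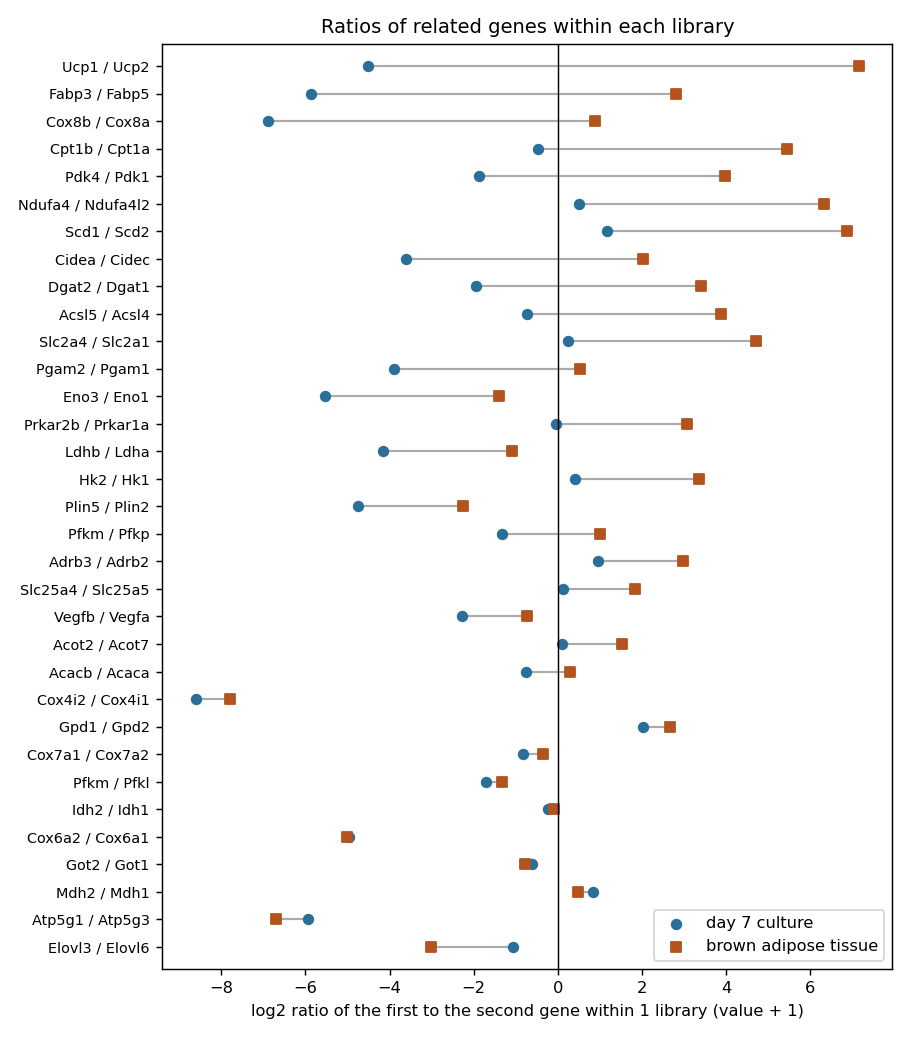
log2 ratio of the first to the second gene of 33 pairs, computed on value + 1 within the day 7 culture (circles) and within brown adipose tissue (squares), sorted by the difference. The squares lie to the right of the circles by at least 1 unit for 23 pairs, and Elovl3 over Elovl6 is the pair with the square furthest to the left of the circle.

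Of the compared genes with 20 or more in one library, the 15 with the largest rank difference to the tissue side were of several kinds. Fat metabolism gave Acot11, Fabp3, Pck1 and Ucp1. Muscle genes were Acta1, Mylpf (0.989 FPKM in the culture and 84.7 RPKM in the tissue), Tnnc1 (1.08 FPKM in the culture and 36.7 RPKM in the tissue) and Pygm. Genes known from vessels were Kdr and the water channel gene Aqp1 (2.12 FPKM in the culture and 79.3 RPKM in the tissue). Secreted antioxidant enzymes were Gpx3, at 0.112, 0.224, 1.61 and 3.03 FPKM over the 4 days and 619 RPKM, and Sod3, at 0.0909, 0.187, 0.394 and 1.21 FPKM and 54.6 RPKM. The others were Gmpr, Tmem45b and H2-Q10, a class I gene with close copies and so an uncertain value. On the culture side 13 of the 15 were genes of cell division or its control, from Cdkn2a and Cdk1 to Foxm1 and D2Ertd750e, and the other 2 were Aldh1l2 and Atad2.

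Tissue holds other cells, and markers of some of them move with the comparison. Endothelial markers were all present in the tissue (25 of 25 at 1 RPKM or more, 493 RPKM in sum), and 7 had a culture row, of which 1190002H23Rik, now named Rgcc, made 83.3 of 107 FPKM. Kdr, the main receptor for VEGF, was at 0.0668 FPKM and 28.4 RPKM. Skeletal muscle markers were present too (31 of 31, 2852 RPKM in sum), led by Acta1 at 534 RPKM beside 1.14 FPKM in the culture, and Ckm, Myh4 and Tnnt3 at 237, 155 and 197 RPKM. In the culture 9 of these markers had a row (156 FPKM in sum), and Mb, myoglobin, was the highest of them. Mb was at 0.0475, 0.0755, 0.631 and 65.1 FPKM over the 4 days and 157 RPKM. Of myeloid markers 22 of 26 were at 1 RPKM or more (196 RPKM in sum), with Cd74 highest at 52.7, and of red blood cell markers 9 of 12 (501 RPKM in sum, of which Hbb-bs 244).

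Markers of lymphocytes and of mesothelial or epithelial cells were at or near 0 for most genes. Lymphocyte markers reached 1 RPKM in 2 of 18 genes (5.61 RPKM in sum), with Cd3d, Cd3e, Nkg7 and Zap70 at 0. Mesothelial and epithelial markers reached it in 1 of 12 (1.44 RPKM in sum), with Krt8, Krt18, Wt1 and Msln among the 10 at 0. Nerve and Schwann cell markers reached it in 6 of 22 (62.7 RPKM), with Pmp22 highest at 27.2 RPKM. In the culture 7 of 10 were at 1 FPKM or more (196 FPKM in sum), with Pmp22 at 161 FPKM. Pericyte and smooth muscle markers were present in 13 of 13 (241 RPKM in sum), led by Rgs5 at 91.5. In the culture they were present in 8 of 8 (459 FPKM in sum), led by Acta2 at 223 FPKM. By rank 1 of the 8 compared was called higher in the tissue and 2 in the culture (median -5.17 points). The adipocyte label itself held on both sides, with Adipoq, Fabp4, Plin1, Cidec, Lpl and Cd36 all above 100 FPKM and RPKM. The brown adipocyte label held in the tissue, and its markers were mixed in the culture. There Ucp1, Cox8b and Elovl3 were under 5 FPKM, Cidea was at 8.81 FPKM and Cox7a1 at 132 FPKM. Dio2 and Ppargc1a had no culture row.

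**Figure D5:**
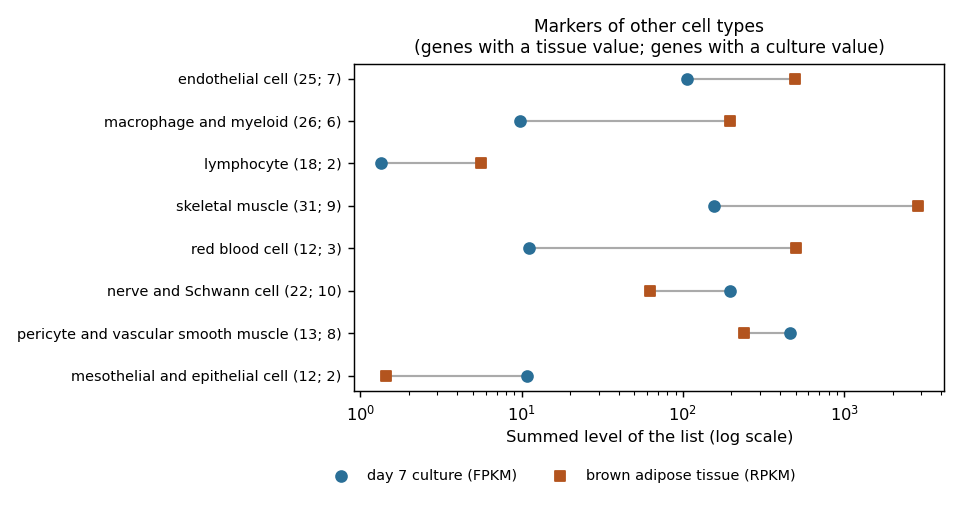
Summed level of 8 lists of markers of other cell types in the day 7 culture (circles, FPKM) and brown adipose tissue (squares, RPKM) on a log scale, with the number of genes that had a tissue value and a culture value in brackets. Skeletal muscle markers have the largest sum in the tissue, 2852 RPKM, and most marker genes of muscle, blood and vessels have no culture row.

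Muscle shares several genes with brown fat. Fabp3, Cpt1b, Cox8b, Pgam2, Eno3 and Pygm are also known from muscle, and what part of their tissue level muscle fibres give was not tested. In a bulk sample fewer cells of a type and less RNA per cell cannot be told apart, and this holds for every level above. When the 8 lists of other cell types were left out of the ranking, 1108 genes were called higher in the tissue and 1106 in the culture.

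Finally, the called genes were followed in culture libraries that the rank rule did not use. These libraries are not independent of the gene set, since a culture row needs more than 1 FPKM in some culture library. A gene below 1 FPKM on day 7 thus had to exceed 1 FPKM on an earlier day. How far this shaped the shares below was not tested. Between day 0 and day 2, of the genes called higher in the tissue 6.17% were at least 2-fold higher and 14.6% at least 2-fold lower on the log2(FPKM + 1) scale. For genes called higher in the culture the shares were 6.82% and 11.3%, and for the other genes 5.77% and 7.97%, against 5.93% and 9.03% of all compared genes. Genes called higher in the tissue were low to begin with, at a median of 5.08 FPKM on day 0 against 27.4 for culture genes and 14.9 for the rest. With a pseudocount of 0.1 the shares that were higher on day 2 were 11.7%, 7.90% and 7.41% in these 3 classes, and the shares that were lower 20.7%, 11.8% and 10.2%, so the shares of the tissue genes depend on how low values are treated. The differences between the shares were not tested.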

How the data were processed

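Poly(A) RNA was sequenced from the day 7 culture, the earlier culture days and brown adipose tissue, 1 library each. The authors deposited the culture as FPKM per gene; per the submitters' processing notes, which name tools without their roles, CASAVA 1.8.2, TopHat2 2.0.10, Cufflinks 1.0.3, SICER and the mm9 build were used. The tissue was deposited by the authors as RPKM per RefSeq transcript, with CASAVA 1.8.2 and mm9 named in the submitters' processing notes; no source used here names its aligner or counter. The culture tables hold only genes above 1 FPKM in some culture library. Of 29082 tissue transcripts, 28432 (97.8%) matched 1 symbol in the RefSeq table, and the highest transcript stood for a gene. How reads of several copies were divided is not given, so genes with close copies are uncertain. The lack of a common unit is why ranks were used.

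From these files the ranks, the calls at 25 points, the log2 ratios with a pseudocount of 1 and the paralog ratios were computed in Python 3.11.15 (scipy 1.17.1, numpy 2.4.6, pandas 2.3.3), and the rank rule was tested on simulated data. No test between the libraries was run, with 1 library a side. Genes are named by 3 rules: the 15 largest rank differences each way among genes whose larger value is at least 20, the 10 highest genes per library, and members of 43 lists and 39 paralog pairs. The members and lists were chosen with earlier results of these data known. Promoters came from the RefSeq table (GRCm38.p6) and were matched by symbol; no coordinate was taken from the files. Protein sequences were not used here. Other minimum values, transcript summaries, pseudocounts and scalings, and leaving out marker lists, genes with pseudogene copies and genes with few tissue reads, were tried as alternatives; the last 2 were chosen after seeing the data.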

Additional observations from a re-analysis of the deposited data

Results flagged for a closer look

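Tissue genes with no row in the culture tables stand outside the comparison. Of 11464 such genes, 2028 were above 0.561 RPKM, the value of 3 reads on 1 kb of transcript, a limit that covers counting error only. Of these, 352 were at 10 RPKM or more and 22 at 100 RPKM or more. The highest were Gnas at 1272 RPKM, the lipase gene Pnpla2 at 652, the nuclear RNA gene Malat1 at 518, Chpt1 at 453 and the carboxylesterase gene Ces1d at 325. Muscle genes such as Ckm (237 RPKM), Atp2a1 (205) and Myh4 (155) were among them too. No level in the culture can be given for any of these genes.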

How the results depend on the processing

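No paired analysis was possible because each side has 1 library and the labels tie no culture library to the tissue. The precision is limited by 1 library a side, by a tissue depth of about 5350000 mapped reads and by an unknown culture depth. With the measure changed from ranks to centred log2 ratios at 4-fold, 625 genes were higher in the tissue and 559 in the culture (875 and 1007 with a pseudocount of 0.1); after scaling to the same total, 304 and 989, with the median of all genes at -0.57. The 9 other alternatives, all by rank, gave 865 to 1206 genes higher in the tissue and 860 to 1202 in the culture. The mitosis median was -72.3 points with a minimum of 1 in both libraries, where 12 of 12 members were called. Without the 8 lists of other cell types, 4 lists in place of 9 had a median past the call, since those lists were removed. Vegfb over Vegfa turned from 1.55 to -0.0051 with summed transcripts. Of the genes ranked higher in the tissue, 20.7% were lower and 11.7% higher on day 2 with a pseudocount of 0.1 (10.2% and 7.41% of genes called in neither direction), and 11.3% were lower with a minimum of 5; the cause was not tested. Of the values for single genes of the brown fat list and the named genes 529 stayed on their side of the call and 15 did not, among them Prdm16 (38.5 points) and Lhx8 (-25.5 points) with summed transcripts.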
